A study of Mus musculus with 6 samples.

Results

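The 10 mouse genes described here encode histones made outside DNA replication: the H2A variants H2A.Z (H2afz, H2afv), H2A.X (H2afx), macroH2A (H2afy, H2afy2) and H2A.J (H2afj), the H3 variant H3.3 (H3f3a, H3f3b) and the linker histones H1.0 (H1f0) and H1.X (H1fx). They were taken by symbol from a count table of 24421 rows, and all 10 had a row and passed the filter on low counts. The libraries came from hippocampus of Ctcf conditional knockout (cKO) mice and of wild type mice, all of strain C57/Bl, with 3 samples per genotype that the series describes as biological replicates. The deleted gene encodes CTCF, which binds DNA through zinc fingers and anchors chromatin loops. The labels name no Cre driver and no age, so the cells that lost Ctcf are not known from them. Whole hippocampal RNA was sequenced, so fewer cells of a type and less RNA per cell cannot be told apart in any value below.

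Most histone protein is made from clustered genes that are active while DNA is copied. Neurons no longer divide, and they depend on genes like these 10 to replace histones that turn over. Most such genes are transcribed throughout the cell cycle and give polyadenylated messages. H2A.Z sits at the nucleosomes next to active transcription starts, H3.3 is placed into transcribed chromatin, macroH2A carries a large extra domain and is known from silent chromatin, and linker histones bind the DNA between nucleosomes. In the hippocampus H2A.Z is known to be exchanged during memory formation, and in human cells nucleosomes that flank CTCF sites are rich in H2A.Z.

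The libraries held 15719249 to 23220455 counts in cKO and 14974750 to 19543473 counts in wild type. Ctcf had 24.1, 34.5 and 35.8 CPM (raw counts scaled to a common library size by TMM) in cKO replicates 1 to 3, against 64.3, 65.2 and 70.3 CPM in wild type replicates 1 to 3. Its message was lower but present in every cKO library (log2 fold change -1.08, SE 0.15, adjusted p = 0.0264 by edgeR's quasi-likelihood test). The 6 markers of hippocampal fields were found in every library. They summed to 407.2 to 502 CPM in cKO and 374.9 to 519.4 CPM in wild type. Of these markers, Wfs1 fell (log2 fold change -1.16, adjusted p = 0.00775 by edgeR), and the other 5 had positive log2 fold changes. Spink8 had the highest, at 1.36, and passed with DESeq2 (adjusted p = 0.0357) but not with edgeR (adjusted p = 0.175). The 8 striatal neuron markers all had negative log2 fold changes, and none was at 0 in any library. They summed to 133.9 to 365 CPM in cKO and 622.2 to 3016 CPM in wild type. DESeq2 called all 8 lower, against 2.48% of the genes it tested, and edgeR called 0. The 8 choroid plexus markers also had negative log2 fold changes, at 611 to 6922 CPM in cKO and 6270 to 12301 CPM in wild type. The 8 oligodendrocyte markers did too, at 10556 to 13937 CPM in cKO and 13809 to 18317 CPM in wild type. DESeq2 called 2 of these lower, Mbp and Mag, and edgeR called 0. Neither tool called a choroid plexus marker. Astrocyte markers summed to 2286 to 2514 CPM in cKO and 2121 to 2511 CPM in wild type, and microglial markers to 305 to 363.9 CPM in cKO and 325.2 to 367.8 CPM in wild type. The part of these cell types in the differences below was not tested.

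One of the 10 genes passed the test. H2afz, the first H2A.Z gene, rose 2.14-fold in cKO hippocampus, while the other 9 had log2 fold changes between -0.36 and 0.06 and did not pass. Over all 14916 genes tested, 1.51% passed at an adjusted p of 0.05, 1.05% as higher in cKO and 0.463% as lower. The median log2 fold change was -0.16 over the 10 histone genes and -0.0042 over all genes tested. Of the 10 log2 fold changes 8 were negative, as were 50.8% of those over all genes. At an unadjusted p below 0.05, 3 of the 10 passed (H2afz higher, H2afv and H1fx lower), against 19.9% of all genes tested. DESeq2 called H2afz higher and H1fx lower, against 3.55% and 2.48% of the genes it tested, 6.02% in all. In the authors' deposited table the same 2 genes had an adjusted p below 0.05, against 4.06% of its genes.

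H2afz (chromosome 3, 137864487 to 137866922 in GRCm38, plus strand) had 21.8, 20.3 and 18.5 CPM in cKO replicates 1 to 3, against 9.26, 9.24 and 9.78 CPM in wild type replicates 1 to 3. All cKO libraries lay above all wild type libraries, and the lowest cKO value was far outside the wild type range. The mean was 20.2 ± 1.63 CPM in cKO and 9.43 ± 0.30 CPM in wild type (SD, n = 3 each), from raw counts of 319 to 440 in cKO and 140 to 191 in wild type. The log2 fold change was 1.10 (SE 0.10, 95% interval 0.86 to 1.34, adjusted p = 0.00837 by edgeR). In the authors' deposited table the log2 fold change of H2afz was 1.09, with an adjusted p of 5.23e-10. By p it ranked 17 among all genes tested, and by fold it ranked 42 among the 156 genes called higher.

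The H2afz difference held its size when any library was left out, with log2 fold changes of 1.04 to 1.16, but its call did not always hold. The edgeR adjusted p was 0.0573 without cKO replicate 1, 0.0683 without cKO replicate 2 and 0.0617 without wild type replicate 3. Over all 12 alternatives the adjusted p ran between 3.38e-10 and 0.0683. Wild type replicate 2 had the highest striatal marker level and cKO replicate 1 the lowest striatal and choroid plexus levels. Without that pair the H2afz log2 fold change was 1.02 (adjusted p = 0.0286 by edgeR). In the libraries kept, striatal sums still did not overlap, at 214.9 to 365 CPM in cKO and 622.2 to 1240 CPM in wild type. Choroid plexus sums did overlap, at 3263 to 6922 CPM in cKO and 6270 to 7701 CPM in wild type. The part of cell types in the H2afz difference was thus not tested.

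**Figure D1:**
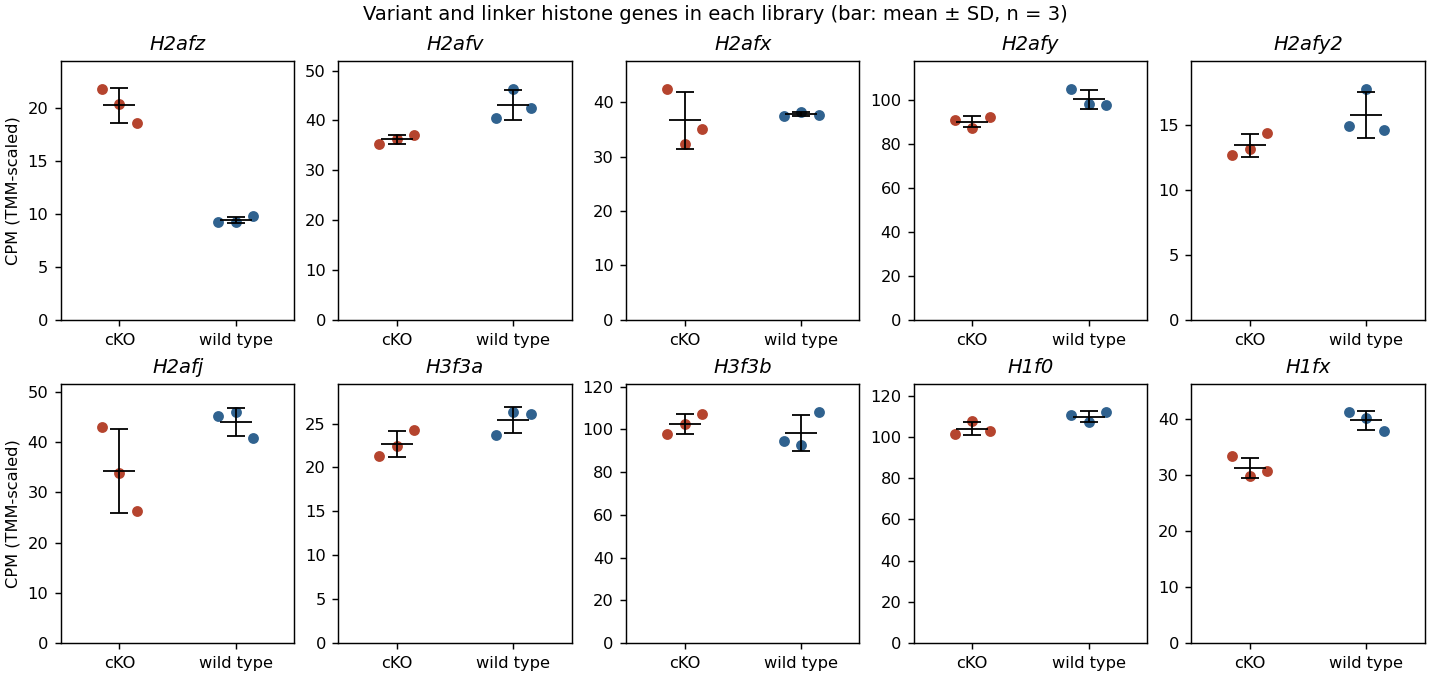
Level of each of the 10 histone genes in CPM (vertical axis, starting at 0) in cKO libraries (red) and wild type libraries (blue), with 1 point per library and the mean ± SD over 3 libraries. The H2afz points lie at 18.5 to 21.8 CPM in cKO and 9.24 to 9.78 CPM in wild type, while H2afv, H2afy, H2afy2 and H1fx lie lower in cKO without overlap by smaller amounts.

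Copies of H2afz elsewhere limit what its count stands for. Of the 1069 bases of its longest GENCODE transcript, 90.1% matched another annotated gene at 95% identity or more over at least 75 bases. Those matches lay on chromosome 6, in the processed pseudogene Gm8203 and in a Tmcc1 transcript that spans it, and on chromosome 12, in Gm6722 and Gm26623. The sources used here do not say how reads that match several places were counted, so the level of H2afz is uncertain. Of these, Tmcc1 alone had a row in the count table, with 1870, 1901 and 2768 counts in cKO replicates 1 to 3 and 1667, 1682 and 2289 counts in wild type replicates 1 to 3.

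The second H2A.Z gene, H2afv (chromosome 11, 6427229 to 6444443, minus strand), is known to encode a protein that differs from the H2afz product at a few residues. It had 35.3, 36.3 and 37.0 CPM in cKO replicates 1 to 3, against 40.4, 46.3 and 42.5 CPM in wild type replicates 1 to 3. The groups did not overlap, with cKO lower, but the log2 fold change of -0.25 (SE 0.08, 95% interval -0.43 to -0.07) did not pass (adjusted p = 0.152 by edgeR). Its transcript had no match elsewhere at the same limits. H2afz made up 38.2%, 35.9% and 33.4% of the summed H2A.Z counts in cKO replicates 1 to 3, against 18.6%, 16.6% and 18.7% in wild type replicates 1 to 3. The log2 ratio of H2afz to H2afv was higher in cKO by 1.35, with an exact permutation p of 0.1 (two-sided), the smallest that 3 against 3 libraries allow, and 0.2 after adjustment over the 6 ratios and sums tested. The summed H2A.Z level was 56.4 ± 0.81 CPM in cKO and 52.5 ± 2.95 CPM in wild type (SD, n = 3 each). The groups overlapped in this sum, with an exact permutation p of 0.2 (adjusted 0.3). The copies of H2afz given above make its share of H2A.Z and the summed level uncertain.

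The bases upstream of the H2A.Z gene pair are shown because H2afz was called and its partner H2afv was not. They come from RefSeq on GRCm38.p6, read 5′ to 3′ on each gene's own strand and ending before the first base of the gene's longest annotated extent (chr3:137864237-137864486, plus strand, for H2afz and chr11:6444512-6444693, minus strand, for H2afv). Capitals mark CCAAT (or ATTGG on the other strand) and GGGCGG (or CCGCCC), the elements called the CCAAT box and the GC box.
H2afz: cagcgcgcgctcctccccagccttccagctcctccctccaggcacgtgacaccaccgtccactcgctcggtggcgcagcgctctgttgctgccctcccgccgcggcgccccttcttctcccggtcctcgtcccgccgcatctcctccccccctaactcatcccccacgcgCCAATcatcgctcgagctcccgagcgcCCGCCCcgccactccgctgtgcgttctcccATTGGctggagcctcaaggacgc
H2afv: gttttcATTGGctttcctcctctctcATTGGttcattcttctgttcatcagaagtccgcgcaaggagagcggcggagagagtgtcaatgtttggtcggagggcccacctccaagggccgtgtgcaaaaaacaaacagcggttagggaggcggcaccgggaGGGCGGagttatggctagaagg
In H2afz, which has 71.2% G and C here, a CCAAT box on the gene's strand ends 76 bases before the start, a GC box on the other strand 48 bases before it and a second CCAAT box, on the other strand, 19 bases before it. The H2afv stretch has 182 bases, 55.5% G and C, and stops where a longer RefSeq transcript begins. Of the 4 CCAAT boxes in the 250 bases before the H2afv start in RefSeq's promoter table, the 2 in the printed stretch lie on the other strand and end 240 and 220 bases before that start. The other two lie nearer the start, in bases not printed, and the GC box ends 85 bases before it. Of 32851 RefSeq promoters, 33.9% held a CCAAT box in the 250 bases upstream on either strand, 32.7% held a GC box and 12.4% held a TATA box (TATAAA). The CCAAT box was found in 5 of the 9 histone genes with an entry, the GC box in 6 and the TATA box in 1, H3f3b. A match is a description of these letters, not a binding site.

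H2afz was not alone on its stretch of chromosome 3. Dnajb14, which encodes a DNAJ family co-chaperone of the endoplasmic reticulum membrane, lies 752 bases downstream on the same strand. It had 12.04, 12.2 and 10.7 CPM in cKO replicates 1 to 3, against 7.08, 6.82 and 7.73 CPM in wild type replicates 1 to 3. The groups did not overlap, and Dnajb14 rose as well, with a log2 fold change of 0.68 (SE 0.12, adjusted p = 0.0481 by edgeR). That call lay close to the threshold: the edgeR adjusted p ran between 0.0777 and 0.205 when any 1 library was left out, and it was 0.0543 with limma-voom and 0.0049 with DESeq2. Of 9 tested genes that reach within 500 kb of the H2afz start, H2afz and Dnajb14 were the 2 that passed. H2afz is in this count by choice, since the window was drawn around it. Among the other genes Dnajb14 alone passed, against 1.51% of all genes tested. This window was chosen after the values were seen. The next gene, Lamtor3, had a log2 fold change of 0.17, without overlap (adjusted p = 0.312 by edgeR). Ddit4l on the other side had -0.62, with overlap (adjusted p = 0.265 by edgeR). Farther out, Mttp (0.32) and Trmt10a (0.53) lay higher in cKO, and Emcn (-0.56) and Adh1 (-1.38) lower, all without overlap. They did not pass (adjusted p = 0.109 to 0.197 by edgeR). Dapp1, at -0.14, overlapped between genotypes. Over all genes tested, 27% did not overlap. Of the 22 tested genes that adjoin or overlap any of the 10 histone genes, Dnajb14 was the 1 that passed, against 1.51% of all genes tested.

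**Figure D2:**
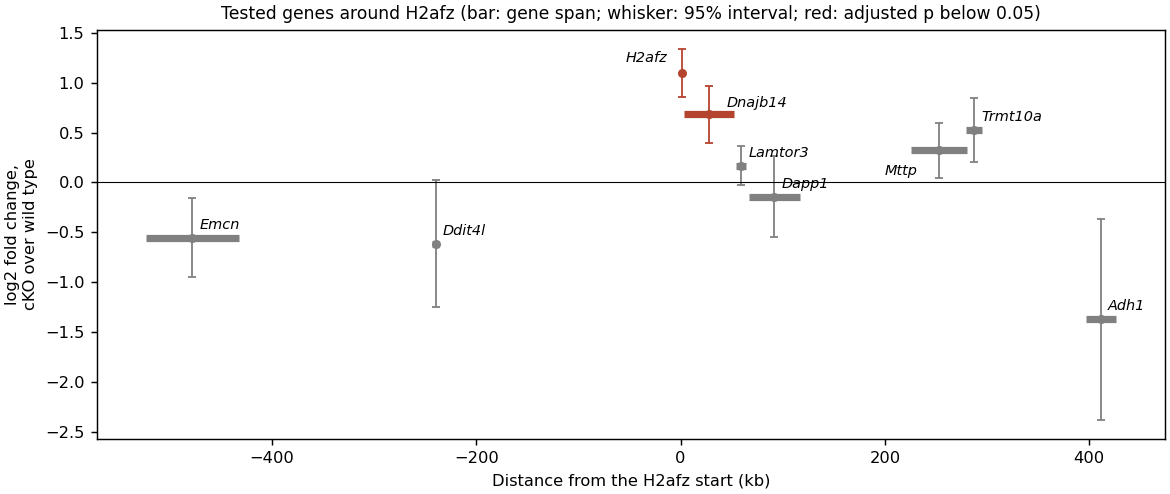
Log2 fold change, cKO over wild type (vertical axis), of the 9 tested genes within 500 kb of the H2afz start, against distance from that start in kb (horizontal axis); thick bars span each gene, whiskers are 95% intervals of the edgeR fit, and red marks an adjusted p below 0.05. H2afz (1.10) and Dnajb14 (0.68) stand side by side, and Lamtor3, which follows, lies at 0.17.

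By the likeness rule, the 5 genes whose log2 CPM followed H2afz most closely over the 6 libraries were Slc39a8, 4930579G24Rik, Atxn2l, Chd9 and Fchsd1. Their Pearson's r with H2afz was 0.996 to 0.998 over 6 libraries that fall into 2 genotype groups, as a description with no test, and 305 genes reached 0.95.

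The H3.3 genes, H3f3a (chromosome 1, 180800832 to 180813943) and H3f3b (chromosome 11, 116021912 to 116027962), are known to encode the same protein. H3f3a had 21.3, 22.4 and 24.2 CPM in cKO replicates 1 to 3, against 23.7, 26.3 and 26.1 CPM in wild type replicates 1 to 3. One cKO library lay above the lowest wild type library, and the log2 fold change was -0.16 (95% interval -0.38 to 0.05, adjusted p = 0.365 by edgeR). H3f3b had 97.7, 102.4 and 107.1 CPM in cKO replicates 1 to 3, against 94.4, 92.9 and 108.2 CPM in wild type replicates 1 to 3. The groups overlapped, and the log2 fold change was 0.06 (95% interval -0.14 to 0.25, adjusted p = 0.748 by edgeR). The upper limit of that interval is a 1.19-fold increase. Summed, the H3.3 level was 125.1 ± 6.16 CPM in cKO and 123.9 ± 9.05 CPM in wild type (SD, n = 3 each, exact permutation p = 0.9). H3f3a made up 17.9% to 18.4% of H3.3 counts in cKO and 19.4% to 22.1% in wild type, without overlap, with a log2 ratio lower by 0.22 in cKO (exact permutation p = 0.1, adjusted 0.2). Copies matched 20.7% of the longest H3f3a transcript, from 16 other genes, and 21.3% of that of H3f3b, so the share of either gene is uncertain.

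The macroH2A genes had lower means in cKO and did not pass. H2afy, which encodes macroH2A1 (chromosome 13, 56073619 to 56136361), had 91.0, 87.3 and 92.5 CPM in cKO replicates 1 to 3, against 105.2, 98.2 and 97.6 CPM in wild type replicates 1 to 3. The groups did not overlap, with cKO lower, and the log2 fold change was -0.15 (95% interval -0.31 to 0.0049, adjusted p = 0.264 by edgeR). H2afy2, which encodes macroH2A2 (chromosome 10, 61738665 to 61784147), had 12.7, 13.2 and 14.4 CPM in cKO replicates 1 to 3, against 14.9, 17.8 and 14.6 CPM in wild type replicates 1 to 3. The gap between the groups was narrow, with 14.4 CPM in the highest cKO library and 14.6 CPM in the lowest wild type library, and the log2 fold change was -0.23 (adjusted p = 0.328 by edgeR). H2afy made up 87.0% ± 0.63 of macroH2A counts in cKO and 86.4% ± 1.55 in wild type (SD, n = 3 each, exact permutation p = 0.7). Summed, macroH2A was at 103.8, 100.5 and 106.9 CPM in cKO replicates 1 to 3, against 120.0, 116.0 and 112.2 CPM in wild type replicates 1 to 3, lower in cKO without overlap; this sum was not tested. H2afy2 overlaps Aifm2 on the other strand, and 51.4% of its transcript matched copies such as the pseudogene H2afy3.

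H2afx (chromosome 9, 44334694 to 44336077) encodes H2A.X, which is phosphorylated where DNA breaks on both strands. It had 42.4, 32.4 and 35.1 CPM in cKO replicates 1 to 3, against 37.5, 38.2 and 37.6 CPM in wild type replicates 1 to 3. The cKO libraries lay on both sides of the wild type ones, with an SD of 14.2% of the mean in cKO and 1.07% in wild type. The log2 fold change was -0.04 (95% interval -0.30 to 0.21, adjusted p = 0.859 by edgeR). H2afj (chromosome 6, 136808244 to 136810074) encodes H2A.J, known in human fibroblasts to accumulate with senescence, and had 42.9, 33.8 and 26.2 CPM in cKO replicates 1 to 3, against 45.1, 46.0 and 40.9 CPM in wild type replicates 1 to 3. It was the most variable of the 10 genes in cKO, where its SD was 24.4% of the mean, and cKO replicate 1 lay inside the wild type range. Its log2 fold change was -0.36 (SE 0.17, 95% interval -0.76 to 0.03, adjusted p = 0.287 by edgeR).

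Among linker histones, H1f0 (chromosome 15, 79028450 to 79030504) encodes H1.0, the form that builds up in cells that have stopped dividing. It had 101.3, 107.5 and 103.1 CPM in cKO replicates 1 to 3, against 110.4, 107.0 and 112.1 CPM in wild type replicates 1 to 3. The groups overlapped by 1 library, and the log2 fold change was -0.08 (95% interval -0.23 to 0.07, adjusted p = 0.523 by edgeR). H1fx (chromosome 6, 87980421 to 87981637) had 33.4, 29.8 and 30.8 CPM in cKO replicates 1 to 3, against 41.4, 40.3 and 38.0 CPM in wild type replicates 1 to 3. The groups did not overlap, with cKO lower, and the log2 fold change was -0.35 (SE 0.08, 95% interval -0.54 to -0.16). H1fx was the gene on which the tests differed. Its adjusted p was 0.0833 with edgeR, 0.0283 with DESeq2 and 0.0888 with limma-voom, it was 0.0419 in the authors' deposited table, and over all alternatives it ran between 0.0283 and 0.246. H1fx overlaps the antisense gene Gm5577, which had 5.71, 5.73 and 5.73 CPM in cKO replicates 1 to 3 and 5.16, 4.21 and 5.63 CPM in wild type replicates 1 to 3. H1f0 made up 76.8% ± 1.54 of the H1f0 and H1fx counts in cKO and 73.4% ± 1.15 in wild type (SD, n = 3 each), without overlap (exact permutation p = 0.1, adjusted 0.2). Their summed level, also not tested, was 133.8 to 137.3 CPM in cKO and 147.3 to 151.8 CPM in wild type, lower in cKO without overlap.

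Without overlap between genotypes were 5 of the 10 genes, H2afz higher in cKO and H2afv, H2afy, H2afy2 and H1fx lower, against 27% of all genes tested (14.6% higher and 12.4% lower). The summed level of the 10 genes was 485.5 to 500 CPM in cKO and 522.3 to 527.3 CPM in wild type.

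**Figure D3:**
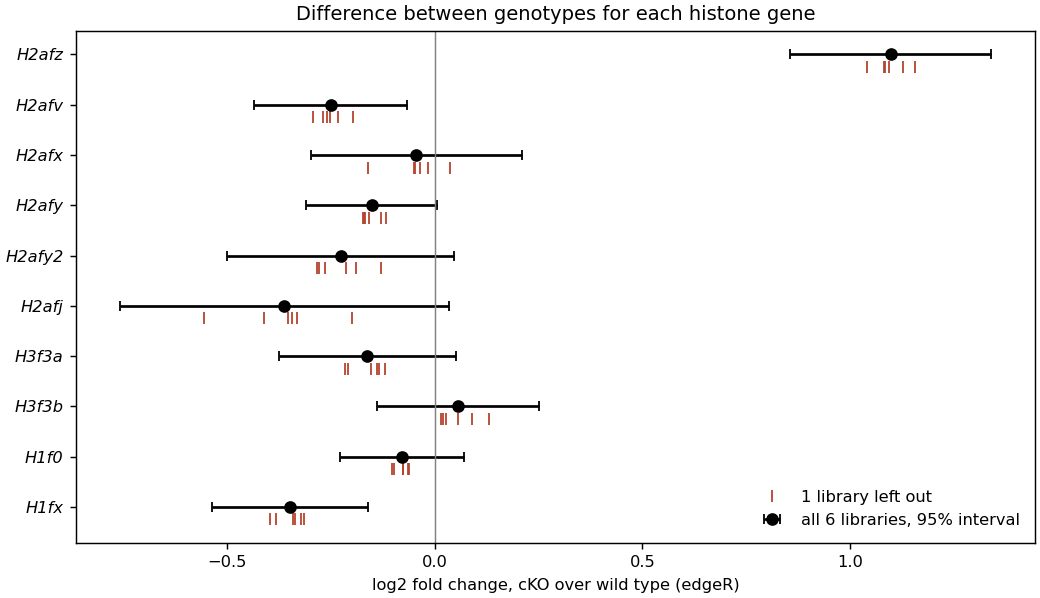
Log2 fold change, cKO over wild type, for each of the 10 histone genes (horizontal axis), with the 95% interval of the edgeR fit in black and, below it in red, the values with 1 library left out. The H2afz values stay between 1.04 and 1.16, and those of H2afx fall on both sides of 0.

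**Figure D4:**
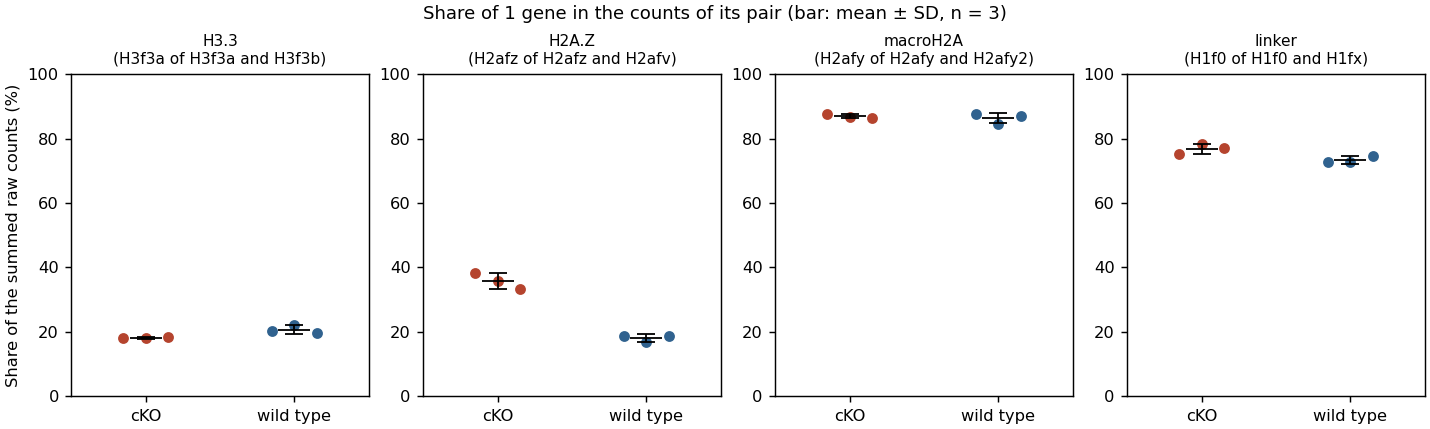
Share of 1 gene in the summed raw counts of its pair, in percent (vertical axis, 0 to 100), for 3 cKO (red) and 3 wild type (blue) libraries with mean ± SD. The H2afz share of H2A.Z is 33.4% to 38.2% in cKO and 16.6% to 18.7% in wild type. The other pairs differ by a few percentage points at most. Copies elsewhere make the shares in H2A.Z, H3.3 and macroH2A uncertain.

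Per kilobase of annotated exon, H1f0 was the highest of the 10 genes, at 50.6 CPM per kb in cKO and 53.5 CPM per kb in wild type. H3f3b came next in both genotypes (34.4 CPM per kb in cKO and 33.1 CPM per kb in wild type). H2afx, H1fx, H2afv, H2afj and H2afy lay between 13.3 and 26.5 CPM per kb in cKO and between 14.7 and 32.8 CPM per kb in wild type. H2afz was eighth in cKO at 11.4 CPM per kb and last in wild type at 5.31 CPM per kb. Neighbours in this order that differed by less than both of their SDs were H2afx and H1fx in cKO and H3f3b and H1fx in wild type. H2afy2 and H3f3a did so in both genotypes. H2afv and H2afj in cKO, and H2afx and H2afv in wild type, differed by less than the larger of their SDs only. Exon lengths take in all annotated transcripts, which lowers the value of genes with many, such as H2afy, and the copies given above make the level of H2afz, H2afy2, H3f3a and H3f3b uncertain.

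Neither other histone genes nor genes that place, remove, read or compete with these histones passed. Of 76 genes in 8 lists, 2 of other histone genes and 6 of genes that act on histones, 66 were tested. Of these edgeR called 0, against 1.51% of all genes tested, a share so low that 0 of 66 does not set the lists apart. DESeq2, which called 6.02% of the genes it tested, also called 0 of the listed genes. So did limma-voom, with which 198 genes of all passed. At an unadjusted p below 0.05, 11 of the 66 were higher and 5 lower. At an unadjusted p below 0.05, 11.1% of all genes tested were higher and 8.81% lower in cKO. The median log2 fold change of the 66 listed genes was 0.0013. Of 19 genes for the SRCAP and TIP60-p400 complexes, INO80 and the chaperone ANP32E, which place or remove H2A.Z, 8 had positive and 11 negative log2 fold changes, all between -0.23 and 0.24. Ep400, the p400 ATPase that exchanges H2A.Z into nucleosomes, had the smallest p, with 124.6 ± 7.25 CPM in cKO and 105.9 ± 2.84 CPM in wild type (SD, n = 3 each), a log2 fold change of 0.23 (adjusted p = 0.147 by edgeR).

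Of 8 genes for H3.3 deposition, by the HIRA complex or by DAXX and ATRX, 5 had positive log2 fold changes. Atrx had 165.2 ± 12.6 CPM in cKO and 125.9 ± 21.0 CPM in wild type (SD, n = 3 each), a log2 fold change of 0.39 (adjusted p = 0.158 by edgeR). Of 7 tested genes for H3-H4 assembly and the FACT complex, Chaf1a, a subunit of the replication-coupled assembly factor CAF-1, had the smallest p, with 4.96 CPM in cKO and 8.40 CPM in wild type (log2 fold change -0.76, adjusted p = 0.132 by edgeR). Of 13 genes around H2A.X phosphorylation 9 had positive log2 fold changes. The smallest p belonged to Atm, the kinase that phosphorylates H2A.X, with 27.1 CPM in cKO and 21.1 CPM in wild type (0.37, adjusted p = 0.11 by edgeR). Among 7 H2A-H2B chaperones the smallest p belonged to Nap1l2 (log2 fold change 0.22, adjusted p = 0.395 by edgeR).

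Of 8 genes for HMGN, HMGB and HMGA proteins and prothymosin, known to compete with linker histones or bind them, 6 had negative log2 fold changes. Hmgb2, an HMG box protein abundant in dividing cells, had 0.25, 0.70 and 0.38 CPM in cKO replicates 1 to 3, against 1.06, 1.34 and 1.23 CPM in wild type replicates 1 to 3. The groups did not overlap, and its log2 fold change of -1.46 rested on 4 to 11 counts in cKO and 16 to 24 counts in wild type (adjusted p = 0.116 by edgeR). Markers of dividing and newborn cells summed to 58.9 to 68.8 CPM in cKO and 58.2 to 72.9 CPM in wild type, a sum made up mostly of the newborn neuron markers Dcx (log2 fold change 0.03) and Sox11 (0.06). The 4 tested markers of dividing cells had negative log2 fold changes. Mki67, which encodes the proliferation antigen Ki-67, had 2.23, 4.14 and 3.12 CPM in cKO replicates 1 to 3, against 5.29, 7.90 and 5.22 CPM in wild type replicates 1 to 3. The groups did not overlap, and the log2 fold change of Mki67 was -0.95 (adjusted p = 0.136 by edgeR and 0.0494 by DESeq2). Top2a had a log2 fold change of -0.96 and Cdk1 of -1.03, and both overlapped between genotypes (adjusted p = 0.283 and 0.313 by edgeR). Birc5 differed least, with a log2 fold change of -0.19 and an overlap of the groups (adjusted p = 0.866 by edgeR). The part of dividing cells in the Hmgb2 and Chaf1a values was not tested. Of the linker histone genes of the histone cluster, 3 of 6 were tested. Hist1h1c, the H1.2 gene, had 7.51, 7.71 and 6.02 CPM in cKO replicates 1 to 3 and 9.93, 12.8 and 9.52 CPM in wild type replicates 1 to 3 (log2 fold change -0.61, adjusted p = 0.127 by edgeR). Hist1h1d (log2 fold change 0.70) and Hist1h1e (0.56) went the other way, with overlap between genotypes (adjusted p = 0.531 and 0.401 by edgeR). Of 7 other variant histone genes, Cenpa, the centromeric H3 variant, was the 1 that passed the filter (log2 fold change -0.25, adjusted p = 0.588 by edgeR), and the other 6 had at most 2 counts in any library.

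**Figure D5:**
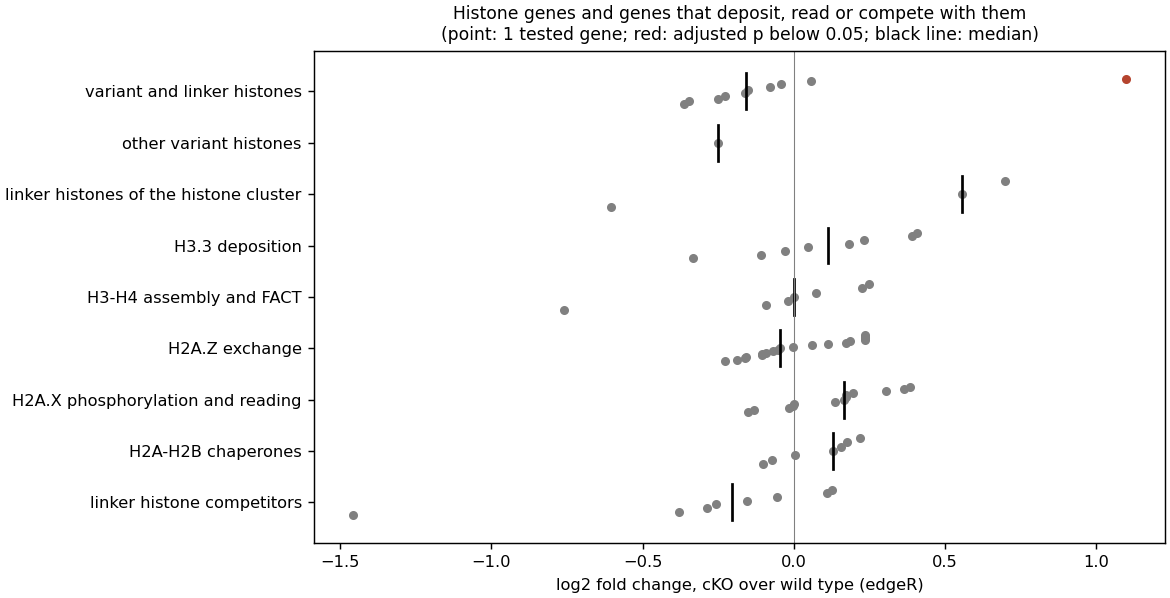
Log2 fold change, cKO over wild type (horizontal axis), of each tested gene of the variant and linker histones and of 8 lists, 2 of other histone genes and 6 of genes that act on histones; 1 point is 1 gene, red marks an adjusted p below 0.05 in the edgeR fit and black lines are medians. H2afz at 1.10 is the red point, and 0 of the 66 listed genes are red, where 1.51% of all genes tested passed.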

How the data were processed

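RNA was measured in 6 hippocampal libraries, 3 per genotype. The authors deposited a table of raw counts with 1 row per gene symbol, per the file headers. The same table holds a signal, the counts divided by 1 size factor per library, and the authors' deposited log2 fold changes and p-values. Per the submitters' processing notes, TopHat2 2.0.10, cutadapt, DESeq2 1.6.3 and HTSeq 0.6.1p1 were used with mm10. Their settings, the annotation, the strandedness of the TruSeq library and the handling of reads with several matches are not given in the sources used here.

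Counts were tested with edgeR 4.0.16 (R 4.3.3; minimum count 10, TMM, quasi-likelihood, Benjamini-Hochberg over 14916 genes, threshold 0.05), checked on simulated data. SE and intervals come from its F statistic. Alternatives were DESeq2 1.42.0, limma-voom 3.58.1, DESeq2 size factors, no low-count filter, a replicate block and left-out libraries. Pair ratios and the H2A.Z and H3.3 sums used exact permutation tests. Positions, exon lengths and transcript copies (blastn) came from GENCODE M21 on GRCm38, to which 23376 symbols matched, and promoters from RefSeq. All pairs of libraries of 1 genotype differed, with a chi-square of at least 10.66 per degree of freedom.

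The histone genes and lists were chosen with earlier results of these data known. Named are the 10 genes, Ctcf, called or else smallest-p genes of each list, the 5 genes most like H2afz, and called neighbours. The genes of the H2afz window and the genes that share sequence or overlap were named for their position.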

Additional observations from a re-analysis of the deposited data

How the results depend on the processing

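Of 12 alternatives, H2afz kept its direction in all and its call in 9, with log2 fold changes of 1.04 to 1.16 when 1 library was left out. Between 0 and 1 of the 10 genes were then called higher. With DESeq2, H1fx was called lower (log2 fold change -0.36, adjusted p = 0.0283), which made 1 gene lower, and 881 genes of all passed, against 225 with edgeR. When 1 library was left out 12 to 147 genes of all passed, and 111 did without wild type replicate 2 and cKO replicate 1 together. Values near 0 changed sign: H2afx ran between -0.16 and 0.04 with 1 library left out (0.0367 without cKO replicate 2) and the log2 ratio of H2afy to H2afy2 between -0.03 and 0.15 (-0.0319 without wild type replicate 2). The summed H3.3 difference ran between -0.0205 (cKO replicate 3 left out) and 0.0749 (wild type replicate 3 left out), and was -0.0177 when wild type replicate 1 and -0.0111 when wild type replicate 2 was left out. The cause was not tested. Same-numbered libraries deviated together with correlations of 0.219, 0.425 and 0.079, and differently numbered ones with correlations of -0.41 to 0.188. For cKO replicates 1 and 2 the highest correlation was with the same number. For cKO replicate 3 it was with wild type replicate 1 (0.188). The labels do not say that numbers pair animals, and the numbers were not taken as pairs. With the replicate block 185 genes of all passed, the H2afz log2 fold change was 1.09 (adjusted p = 0.0288 by edgeR) and Dnajb14 was not called (adjusted p = 0.071). Ctcf was not called in 3 of its 12 alternatives (adjusted p up to 0.124 by edgeR). The 3 libraries per genotype limit what could be detected: exact permutation tests could not go below 0.1, and the effect of reads shared with copies could not be measured.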
